A study of Mus musculus with 4 samples.

Results

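The Runx family comprises the transcription factor genes Runx1, Runx2 and Runx3. It was examined together with Cbfb, which encodes their shared partner subunit, and Runx1t1, which encodes the corepressor ETO. Accessible regions of these 5 genes were taken from ATAC-seq peak lists of the mouse erythroblast line G1ER. In ATAC-seq, a transposase inserts sequencing adapters into open DNA, and a peak marks a stretch where inserted fragments pile up. Peaks of all libraries were merged where they overlapped or touched. A merged region was assigned to a gene if it overlapped the gene's span, or if one of the gene's ends was the nearest protein-coding gene end and lay within 100 kb. This rule gave 12 of the 15328 merged regions: 10 for Runx1, 1 for Cbfb, 1 inside Runx2, and 0 for Runx3 and Runx1t1.

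The series asks how loss of CHD7, a nucleosome-remodelling chromodomain helicase, alters accessibility, and its title names a CHD7 and Runx1 interaction. There were 2 libraries of wild-type G1ER cells and 2 of Chd7-/- G1ER cells, each made from 50000 cells. The labels give 1 h for replicate 1 of each genotype and 2 h for replicate 2. No treatment was applied, per the labels, and the times match the range stated for transposition. G1ER cells lack a working Gata1 gene and instead express a GATA1 protein joined to a domain of the estrogen receptor, and this holds for both genotypes. Both were grown in IMDM with 16% serum, monothioglycerol, 2 U/mL EPO and SCF-conditioned medium. The 2 knockout libraries share a code in their descriptions, so an effect of genotype cannot be told apart from one of a single clone. Whether replicates came from separate cultures is not said, so their spread, and any p-value based on it, may be technical.

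RUNX proteins bind DNA through the Runt domain, which reads the core letters TGTGGT, and CBFB does not touch DNA but stabilises that binding. Runx1 is needed for the first blood stem cells and for megakaryocytes, Runx2 for bone, and Runx3 for T cells and sensory neurons. Each Runx gene is transcribed from a distal promoter, P1, and a proximal one, P2. RUNX1T1 is best known as the part of the AML1-ETO leukaemia fusion that recruits corepressors, and CBFB is joined to a myosin heavy chain in another leukaemia fusion.

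RefSeq promoter windows on GRCm38.p6, from 250 bases before to 50 bases after a start site, were on hand for 6 start sites of 4 of the 5 genes. The longest run of letters common to the P1 windows of Runx1, Runx2 and Runx3 was 18 bases. It holds the RUNX core 2 times, as its reverse complement ACCACA, with 2 letters between the copies. The run is shown with 6 bases on either side, since all 3 windows hold it, and its function was not examined. Capitals mark the RUNX core, and each line reads 5′ to 3′ on the gene's strand.
Runx1 P1, chr16:92826025-92826054, minus strand: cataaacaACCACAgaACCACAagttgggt
Runx2 P1, chr17:44814583-44814612, minus strand: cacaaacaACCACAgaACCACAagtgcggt
Runx3 P1, chr4:135120503-135120532, plus strand: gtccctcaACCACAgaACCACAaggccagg

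Of 32851 RefSeq promoter windows, 4 held this 18-base run on either strand. They were the 3 Runx P1 windows and that of Gm16225, a long non-coding gene whose window overlaps the P1 window of Runx3. Counting from 0 at the start base, the run lay at positions 26 to 43 in Runx1, 21 to 38 in Runx2 and −136 to −119 in Runx3. Runx1 and Runx2 shared a longer stretch of 22 bases. At least 1 RUNX core, searched on both strands, was in 16.8% of all windows, and 2 or more cores were in 1.81%. The Runx2 P1 window held 3 cores, as did 0.183% of windows in that number or more. The P2 windows of Runx1 and Runx3 and the window of Cbfb held 0 cores.

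The 250 bases before each start site that overlapped an accessible region are shown next, because the peak summits described below fall in them. Capitals mark every match, on either strand, to the RUNX core or to the letters of 3 other factor families. GATA factors were searched as AGATAA. The KLF family, to which the erythroid factor KLF1 belongs, was searched as CACCC. For ETS factors the letters searched were GGAA, and matches of different motifs may overlap.
Runx1 P1, chr16:92826075-92826324, minus strand: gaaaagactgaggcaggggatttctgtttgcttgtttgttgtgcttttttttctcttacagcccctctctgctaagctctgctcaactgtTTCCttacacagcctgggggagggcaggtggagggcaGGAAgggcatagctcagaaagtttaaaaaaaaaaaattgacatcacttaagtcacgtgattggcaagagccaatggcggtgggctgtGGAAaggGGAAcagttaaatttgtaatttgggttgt
Runx1 P2, chr16:92697330-92697579, minus strand: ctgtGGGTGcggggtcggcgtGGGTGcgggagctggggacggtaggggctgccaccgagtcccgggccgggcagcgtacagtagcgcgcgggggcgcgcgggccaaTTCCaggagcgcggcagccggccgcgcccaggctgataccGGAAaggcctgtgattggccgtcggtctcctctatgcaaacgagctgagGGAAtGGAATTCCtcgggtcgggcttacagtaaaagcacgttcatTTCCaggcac
Cbfb, chr8:105170424-105170673, plus strand: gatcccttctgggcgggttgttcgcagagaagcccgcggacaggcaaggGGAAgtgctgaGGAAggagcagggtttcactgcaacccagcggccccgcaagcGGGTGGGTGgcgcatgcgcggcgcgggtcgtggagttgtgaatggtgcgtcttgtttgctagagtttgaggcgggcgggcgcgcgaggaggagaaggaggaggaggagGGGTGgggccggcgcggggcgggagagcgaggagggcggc

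G and C letters made up 45.0% of the 300-base Runx1 P1 window, 45.3% of Runx2 P1 and 63.7% of Runx3 P1. They made up 69.0% of Runx1 P2, 69.7% of Cbfb and 77.3% of Runx3 P2. The GATA letters were in none of the 6 windows of the member genes, and in 11.2% of all windows. KLF letters were in 57.5% of all windows and ETS letters in 96.0%, so a match to either is common.

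The lists held between 11084 and 12443 nuclear peaks per library. Total read depth was unknown. The lowest local background, which scales with depth if reads were extended alike, was 0.787 fragments per base in wild-type replicate 1 and 1.01 to 1.08 in the other libraries. Knockout replicate 1 had the most peaks, and of the regions called in 1 library alone, 37.2% were its own, against 15.2% for wild-type replicate 1. Chd7 itself had 0 regions, which leaves the genotype labels unchecked here. Of 12 erythroid marker genes, 9 had a region, including Gata1, Klf1, Alas2 and Epor, while Slc4a1, Hbb-b1 and Hba-a1 had 0. Progenitor and mast cell markers had a region in 4 of 5 genes (Kit, Gata2, Cd34 and Cpa3, 9 regions in all), and megakaryocyte markers in 2 of 5 (Pf4 and Itga2b). The 6 granulocyte and macrophage markers had 0 regions, and the 6 lymphoid markers had 1, at Rag1 in knockout replicate 1.

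Accessibility was concentrated on Runx1. With 10 regions, it had as many as or more than all but 5 of 21887 protein-coding genes, of which 51.2% had 0 regions. Those 5 were Gm52481 with 13 regions, Gm15319 and Mbp with 12 each, and Sfi1 and Zfp608 with 11 each. They were named after their values were seen, and their spans were all shorter than that of Runx1. Of the 843 genes at least as long as Runx1, which spans 225 kb, 54.2% had 0 regions and 3 had 10: Rere, Zfp993 and Runx1 itself. Much of this number came from regions called in part of the libraries. Runx1 had 3 regions called in all 4 libraries. Among the other genes with 10 or more, this number was 6 for Gm52481, Sfi1 and Zfp608, 5 for Mbp, 4 for Rere, 1 for Gm15319 and 0 for Zfp993.

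**Figure D1:**
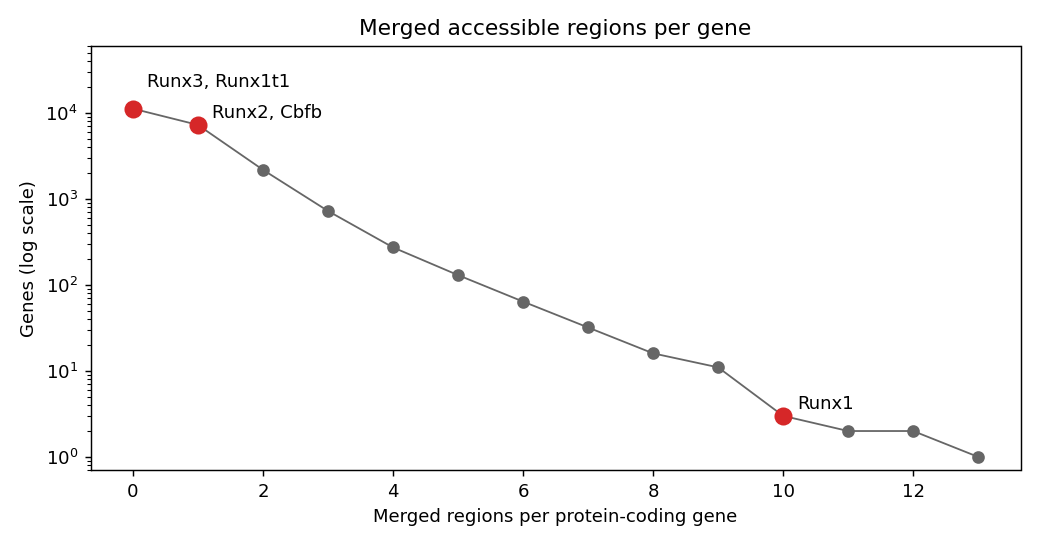
Number of protein-coding genes (log scale) by the number of merged accessible regions assigned to them. Runx1, with 10 regions, lies in the tail of the distribution, and the other 4 genes, in red, lie at 0 or 1 region, where most genes fall.

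The genes most like Runx1 were ranked by the distance between their numbers of regions in the 4 libraries and those of Runx1 (5 and 6 in wild-type replicates 1 and 2, 9 and 6 in knockout replicates 1 and 2). Rere, a corepressor gene, came first with 4, 7, 8 and 7 regions in the same order. It was followed by Chst11 with 5, 5, 7 and 6, and by Ikzf2, an Ikaros family gene, with the same 4 numbers. Cers6 had 6, 7, 7 and 6, and Chd2, a relative of Chd7, had 5, 5, 7 and 7. This likeness rests on 4 numbers per gene and says only that regions were similarly many.

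The 10 Runx1 regions formed a pattern along the gene. Runx1 lies on the minus strand of chromosome 16 from 92601466 to 92826074 (GRCm38), with P1 at its upper end and P2 129 kb downstream. Regions lay at P1, at P2, at 7 places between them and at 1 place upstream of P1. The 95.9 kb from P2 to the far end of the gene held 0 regions in any library. The next region of any gene beyond the outermost Runx1 regions was 203 kb away on the P2 side and 240 kb away on the P1 side. The gene table used here holds no exons, so exon and intron were not assigned.

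**Figure D2:**
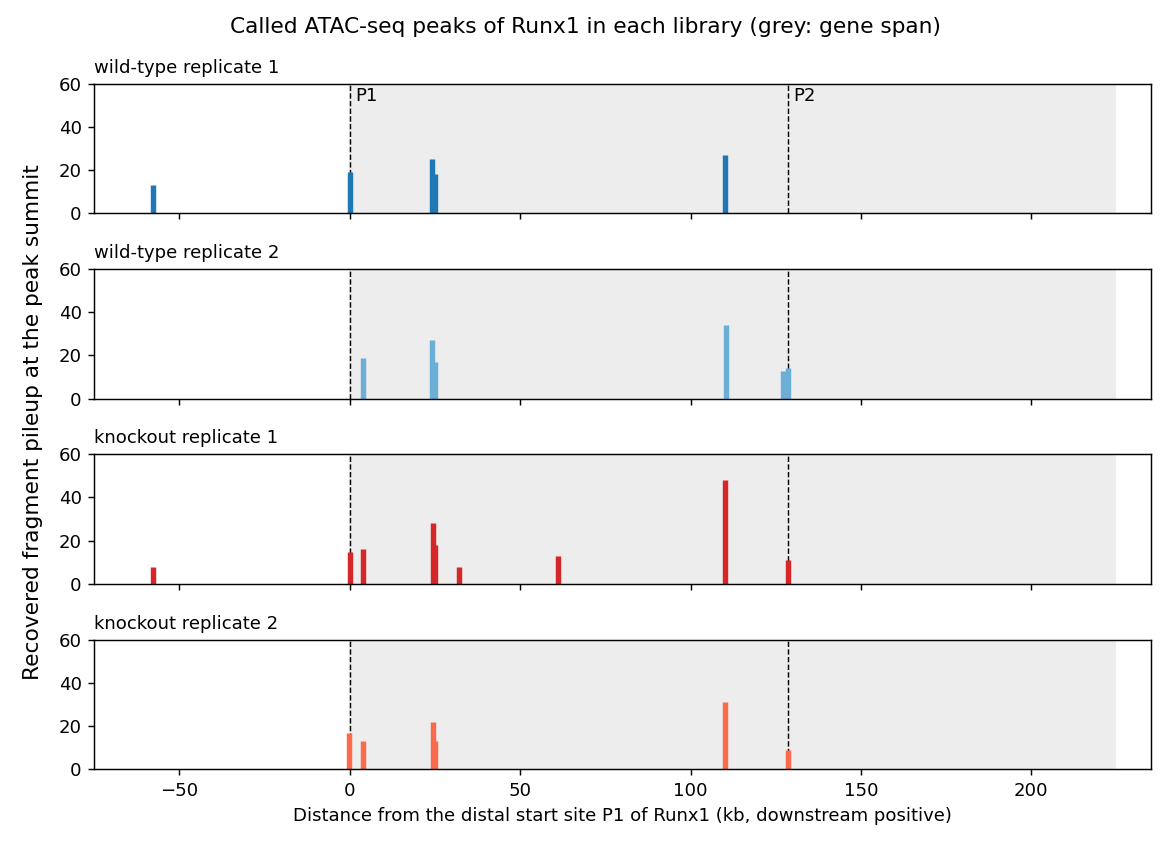
Recovered fragment pileup at each called peak summit (vertical axis) against distance from P1 of Runx1 in kb, 1 panel per library, with the gene span in grey and both start sites as dashed lines. All 4 libraries show the pair of peaks near 25 kb and the peak at 110 kb, and 0 peaks lie to the right of P2.

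The P1 region (92825901 to 92826324) was called in 3 libraries. Its pileup at the summit, in fragments, was 19 in wild-type replicate 1, 15 in knockout replicate 1 and 17 in knockout replicate 2, and no peak was called in wild-type replicate 2. The 3 summits lay at positions −54, −39 and −79 from the start site, in the same order. They fell in the printed stretch and 67 to 107 bases upstream of the tandem RUNX cores. Both genotypes thus had a library with this peak, and the 1 library without it was the one with the highest background.

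The P2 region (92697264 to 92697564) was also called in 3 libraries, but in another set. Its summit pileup was 14 fragments in wild-type replicate 2, 11 in knockout replicate 1 and 9 in knockout replicate 2, and wild-type replicate 1, the library of lowest background, had no peak there. These summits lay at −54, −78 and −109 from the P2 start site. P2 was the weaker start in both libraries that had both peaks, with fold enrichments of 4.32 against 5.23 in knockout replicate 1 and 4.24 against 6.0 in knockout replicate 2. Fold enrichment here is the authors' ratio of pileup to local background and was compared within a list only.

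A peak at a start site was not common to all genes. Of 21263 promoter windows of protein-coding genes, 37.4% overlapped a region called in at least 1 library and 30.9% a region called in all 4. Of 2074 genes with 2 windows, as Runx1 and Runx3 have, both windows overlapped a region in 30.1%, 1 did in 22% and neither did in 47.9%. Counting a region called in any library, Runx1 was of the first kind and Runx3 of the last. At Runx1, wild-type replicate 1 had only the P1 peak and wild-type replicate 2 only the P2 peak, while both knockout libraries had both.

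**Figure D3:**
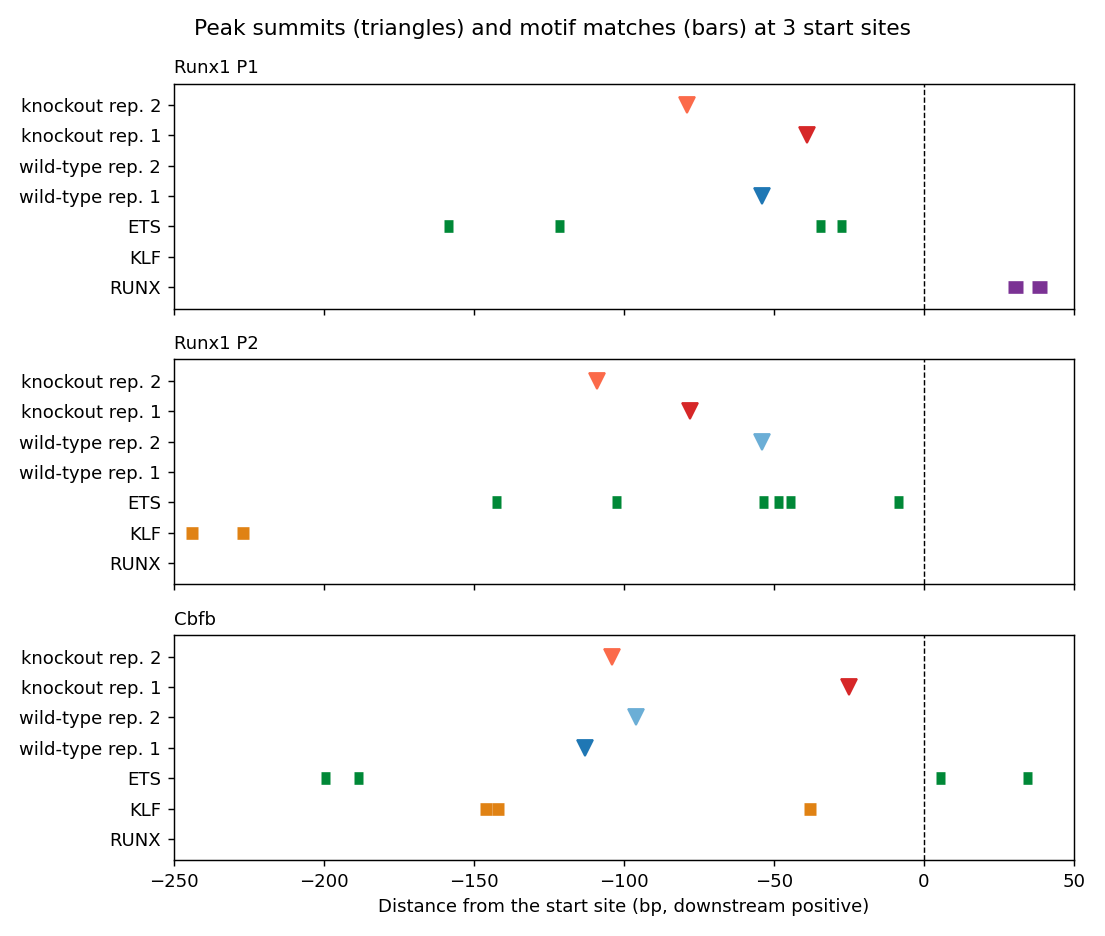
Peak summits (triangles, 1 row per library) and matches to the ETS, KLF and RUNX letters (bars) against distance in bases from the start sites Runx1 P1, Runx1 P2 and Cbfb, whose start base is at 0. Summits lie at −113 to −25, and the RUNX matches of Runx1 P1 lie after it.

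The strongest Runx1 region lay between the promoters, 110 kb downstream of P1 (92715517 to 92716214, 698 bases). Its summit held 27 and 34 fragments in wild-type replicates 1 and 2, against 48 and 31 in knockout replicates 1 and 2. Knockout replicate 1 stood highest, and the other knockout library lay between the wild-type ones on this unscaled measure. By fold enrichment it ranked at the 95.6th percentile of its list in knockout replicate 1 and at the 73.2nd to 73.4th percentile in the others. Summits of the 4 libraries fell within 115 bases.

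A pair of neighbouring regions followed P1 at 24.3 kb and 25 kb, with a gap of 212 bases between them. Background knowledge places a haematopoietic enhancer of Runx1 between the promoters, downstream of P1, but whether this pair is that enhancer was not examined. The region at 24.3 kb (92801550 to 92802044) had 25 and 27 fragments in wild-type replicates 1 and 2, against 28 and 22 in knockout replicates 1 and 2, so the genotypes overlapped. The region at 25 kb (92800869 to 92801337) had 18 and 17 fragments in wild type and 18 and 13 in knockout. It was the weaker of the pair in every library. Its summits agreed within 32 bases.

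A region 3.83 kb downstream of P1 (92822042 to 92822441) was called in 3 libraries, with 19 fragments in wild-type replicate 2, 16 in knockout replicate 1 and 13 in knockout replicate 2. As at P2, the library without it was wild-type replicate 1. Of all 1576 regions called in exactly 3 libraries, 34.0% lacked wild-type replicate 1 and 34.6% knockout replicate 2, against 14.1% that lacked wild-type replicate 2, the library without a P1 peak, and 17.3% knockout replicate 1. The part of depth in these gaps was not tested.

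The 4 remaining Runx1 regions were called in 1 or 2 libraries. The 1 upstream of P1, 57.8 kb away (92883761 to 92884045), had 13 fragments in wild-type replicate 1 and 8 in knockout replicate 1, the libraries labelled 1 h. Knockout replicate 1 alone had peaks 32.1 kb and 61.1 kb downstream of P1, with 8 and 13 fragments. Wild-type replicate 2 alone had a peak of 13 fragments 1.14 kb before the P2 region. The 2 peaks of 8 fragments were close to the lowest pileup of any called peak, which was 6 or 7 per library. The peaks of 13 fragments were not: their −log10 q was 8.91 upstream of P1, 8.03 at 61.1 kb and 5.53 near P2, against 2.90 to 6.37 for the P2 peaks.

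Cbfb had 1 region, at its start site (chromosome 8, 105170411 to 105171011), in all 4 libraries. Its summit held 18 and 28 fragments in wild-type replicates 1 and 2, against 25 and 19 in knockout replicates 1 and 2, so each genotype had a high and a low library. Summits lay at positions −113 to −25 from the start site. The remaining 47.3 kb span of Cbfb held no other region.

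Runx2 had 1 region within its span (chromosome 17, 44776710 to 44777715), which also covers the start site of Supt3, a neighbouring gene that overlaps Runx2 and encodes a transcription coactivator subunit. The middle of the region was 94 bases from the end of Supt3 and 37.6 kb from that of Runx2, so it came in through the span rule. Pileups were 36 and 42 fragments in wild-type replicates 1 and 2, against 33 and 34 in knockout replicates 1 and 2. Both knockout values lay below both wild-type values on this unscaled measure. At 1006 bases it was wider than 97.0% of all regions. The P1 window of Runx2 overlapped no region, although it carries the same tandem RUNX cores as the P1 window of Runx1.

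Runx3 and Runx1t1 had 0 regions in each library. At Runx3 (chromosome 4, 135120645 to 135177990), neither start site overlapped a peak, and the nearest region lay 28.3 kb outside the gene, linked to Clic4 and called in 2 libraries. At Runx1t1 (chromosome 4, 13742628 to 13895056), the nearest region was 931 kb away. A lack of assigned regions was common: 43.0% of genes at least as long as Runx3 and 52.9% of those at least as long as Runx1t1 had 0 regions. A lack of called peaks does not show that these genes were closed in every cell.

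The comparison of genotypes asks whether loss of CHD7 changed accessibility at these genes. No member region was particular to a genotype: 0 of 12 were knockout-only (called in each knockout library but in no wild-type one), against 2.71% of all regions, and 0 were wild-type-only, against 2.25%. With 12 regions and such low background shares, 0 is an unremarkable count. Called in all 4 libraries were 5 of 12 regions, against 56.8% of all regions. The number of member regions called was 7 and 8 in wild-type replicates 1 and 2, against 11 and 8 in knockout replicates 1 and 2. Of all merged regions, 10924, 11902, 12264 and 11230 were called in the same order, so knockout replicate 1 had the most and wild-type replicate 1 the fewest. For member regions, wild type averaged 7.5 ± 0.707 (SD, n = 2) and knockout 9.5 ± 2.12 (SD, n = 2). The difference of 2 regions was smaller than the SD of the knockout libraries (two-sided exact permutation p = 0.667, where 0.333 is the smallest possible). The whole difference came from Runx1 and from the 1 h libraries, where knockout replicate 1 had 4 more member regions than wild-type replicate 1. The 2 h libraries differed by 0. Of the 4, those 32.1 and 61.1 kb from P1 were called in knockout replicate 1 alone. Those at P2 and 3.83 kb from P1 were called in every library except wild-type replicate 1. The mean difference was 0 when every list was reduced to the same number of peaks, and −1 when each peak needed a −log10 q of at least 5.

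For the 5 regions called in all 4 libraries, log2 of pileup plus 1 was centred on each library's median, and the genotypes were compared with limma over all 8704 such regions with recovered pileups. The test called 0 of them at an adjusted p below 0.05 (0.0%), and thus 0 of the 5 member regions. At an unadjusted p below 0.05 there were 758 regions (8.71%), with 0 members among them. The median difference, knockout minus wild type, was 0.018 over the 5 member regions and 0.023 over all 8704.

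On the centred log2 scale, the Runx1 region 110 kb from P1 stood at 0.16 and 0.27 in wild-type replicates 1 and 2, against 0.86 and 0.42 in knockout replicates 1 and 2. The genotypes did not overlap on this scale, with both knockout libraries higher, whereas their uncentred pileups did (27 and 34 against 48 and 31 fragments). The centred difference was the largest among the 5 regions. It was 0.42 ± 0.21 (SE), with limma adjusted p = 0.621 and unadjusted p = 0.0732, so it did not pass. A difference of this size or larger in either direction was seen in 11.6% of regions. Most of it came from the 1 h libraries, where the difference was 0.70, against 0.14 at 2 h. Without knockout replicate 1 it was 0.20 (limma adjusted p = 0.884).

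The region inside Runx2 at the Supt3 start differed by −0.13 ± 0.19 (SE; limma adjusted p = 0.907), and its genotypes did not overlap, with knockout lower. Non-overlap in either direction, seen in 2 of the 5 member regions, occurred in 38.7% of all regions. The genotypes overlapped at the other 3 regions. At Cbfb the difference was 0.039 ± 0.21 (SE; limma adjusted p = 0.976). At the Runx1 pair it was 0.018 ± 0.19 (SE; limma adjusted p = 0.987) at 24.3 kb and −0.10 ± 0.20 (SE; limma adjusted p = 0.934) at 25 kb. With these errors, the data do not show that the regions were alike in both genotypes.

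**Figure D4:**
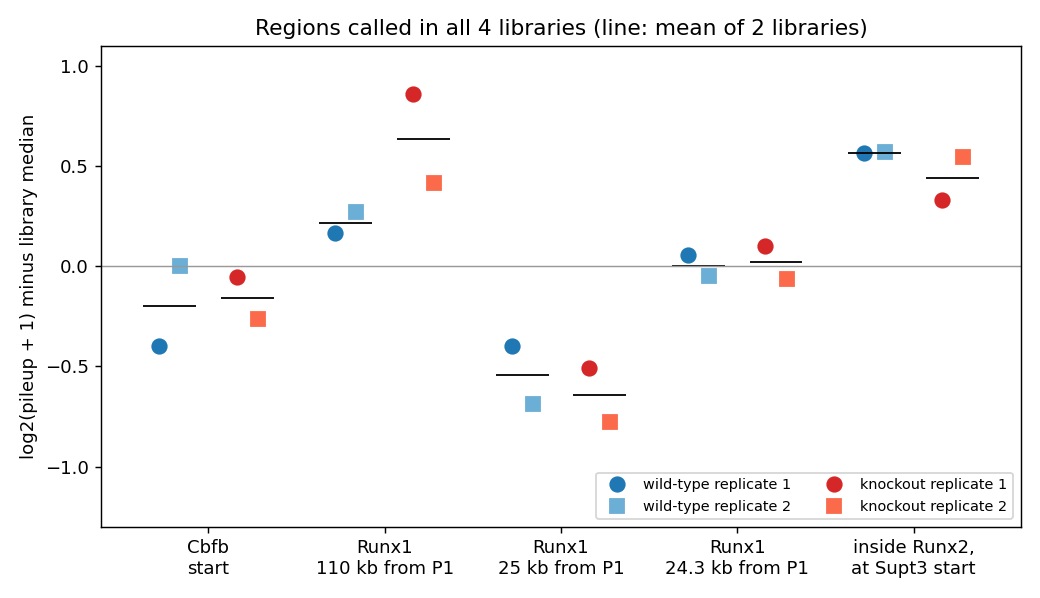
Log2 of pileup plus 1 minus the library median for the 5 regions called in all 4 libraries, with wild type in blue, knockout in red, replicate 1 as circles, replicate 2 as squares and the mean of 2 libraries as a line. The Runx1 region at 110 kb is higher in both knockout libraries, at 0.42 and 0.86, and the genotypes overlap at Cbfb and at the Runx1 pair.

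Genes that work with RUNX proteins were grouped into 4 lists, of which all 88 genes were matched. Their numbers of genes with a region stand against 48.8% of all 21887 protein-coding genes. Regions called in knockout only stand against 2.71% of all regions, and those called in wild type only against 2.25%. For ETO family members and corepressors, 14 of 16 genes had a region, 25 in all. Cbfa2t3, the ETO relative active in erythroid cells, had 6 regions where Runx1t1 had 0. Cbfa2t3, Sin3a and Tle3 had 2 regions each called in all 4 libraries. The list had 1 region called in wild type only, at Tle3, a Groucho corepressor gene (chromosome 9, 61385730 to 61386075), with 8 and 13 fragments in wild-type replicates 1 and 2. It had 0 regions called in knockout only.

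For coactivators and modifiers, 19 of 22 genes had a region, 43 in all. Hipk2, a kinase gene, had 4 regions called in all 4 libraries, Ccnd3 had 3 and Kat6b, an acetyltransferase gene, had 2. There was 1 region called in knockout only, at Cdk6 (chromosome 5, 3502746 to 3503048), with 13 and 11 fragments, and 0 called in wild type only.

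For haematopoietic partner factors, 19 of 23 genes had a region, 53 in all, of which 25 were called in all 4 libraries. Zfpm1, which encodes the GATA1 cofactor FOG1, led with 4 such regions, and Erg, an ETS factor gene, Fos and Ikzf1, the Ikaros gene, had 3 each. The 2 regions called in wild type only belonged to Ldb1 (12 and 11 fragments) and Myb (9 and 17), and the 1 called in knockout only to Tcf12 (12 and 10). These were 2 and 1 of 53 regions, beside 2.25% and 2.71% of all regions.

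Of 27 known RUNX1 targets, 15 had a region, a share near that of all genes. Angpt1 had 4, all called in the 4 libraries, and Cd34, Smad6 and Socs3 had 2 such regions each. The myeloid targets Csf1r, Mpo, Elane, Csf2 and Il3 had 0 regions, whereas the megakaryocyte targets Pf4 and Itga2b had 1 each in every library. This list had 0 regions of either exclusive class. Between 15 and 25 regions per list entered the limma comparison and 0 passed in each, with medians of 0.059, 0.030, 0.056 and 0.025 in the order given, against 0.023 over all regions. An unadjusted limma p below 0.05 was found for 0 of 15 regions of corepressors, 3 of 25 of coactivators (2 higher in knockout), 4 of 25 of partner factors (all 4 higher in knockout) and 4 of 17 of targets (2 higher in knockout), against 8.71% of all regions.

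RUNX letters at other promoters were tallied in the same way. Windows of protein-coding genes overlapped a region called in all 4 libraries in 32.3% of cases with 0 cores, 24.0% with 1 core and 12.5% with 2 or more. Base composition moved with this order, with median G and C shares of 57.3%, 52.7% and 49.3%, and its part was not tested. The median difference between genotypes over the accessible regions at these windows was −0.0025, −0.020 and 0.026 on the centred log2 scale. In the limma comparison 0 regions passed in each class, and an unadjusted p below 0.05 was found for 275 of 4641, 40 of 622 and 3 of 38. Runx1 P1, with 2 cores and a region in 3 libraries, was not among these 38, since it had no peak in wild-type replicate 2.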

How the data were processed

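ATAC-seq peak lists of 4 G1ER libraries, 2 wild-type and 2 Chd7-/-, were analysed, grouped by sample title. The submitters' processing notes list Bowtie2 2.2.1 and MACS2 2.1.0, and peaks were called per library on GRCm38, per the peak names in the files. Sources used here do not state the threshold, any control, read shifting or duplicate removal. Each deposited list holds a score, about 10 times the deposited −log10 q as a whole number, a fold enrichment (the ratio of pileup to background at the summit), a −log10 p, a −log10 q and a summit position.

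Nuclear peaks were merged, mitochondrial ones were left out, and bedtools 2.31.1 gave the same 15328 regions. Genes came from the GRCm38.p6 RefSeq table, which holds no exons, and sequences from the RefSeq promoter table of the same build. Whole-number pileup and background were solved for from the Poisson p-value and the fold enrichment, read as a ratio in which both terms have 1 added (tolerance 0.001 in −log10 p, 1 peak per library failing). Where 16 peaks had 2 solutions, the one not below the library's commonest background was kept. Pileups are comparable only if MACS2 applied no rescaling. In a region with several peaks the strongest by fold enrichment was used. Differences were tested with limma 3.58.1 in R 4.3.3 (pseudocount 1, Benjamini-Hochberg adjustment over all regions), and counts per library by exact permutation over 6 assignments. The steps were tested on simulated data. With Poisson noise alone, limma called 16% of 100 regions changed by a log2 of 1 in either direction. It called 96% of 100 regions changed by a log2 of 2.

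The 5 genes, 4 lists and naming rule were chosen with earlier results of these data known. Named were all members, list genes with an exclusive or passing region, up to 3 genes per list with most regions in all 4 libraries (Ikzf1 and Socs3, tied with the last of these, were added after their values were seen), and the 5 genes most like Runx1. Genes with 0 regions and other list genes named in small groups lie outside this rule and were named after their values were seen. Same-numbered libraries did not deviate together (correlation 0.00217 over 8704 regions). Python 3.11.15 ran the remaining steps, with pandas 2.3.3, numpy 2.4.6, matplotlib 3.10.9 and scipy 1.17.1.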

Additional observations from a re-analysis of the deposited data

Results flagged for a closer look

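At 2 of the 5 regions called in all 4 libraries, the difference between knockout and wild type had opposite signs at the 2 labelled times. At the Cbfb start it was 0.34 at 1 h and −0.26 at 2 h on the centred log2 scale. At the Runx1 region 24.3 kb from P1 it was 0.047 at 1 h and −0.011 at 2 h. Each value compares 1 library with 1 library, so the difference between times was not tested. Opposite signs were found at 45.0% of the 8704 regions compared.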

How the results depend on the processing

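The number of member regions passing limma was 0 under every alternative run: a pseudocount of 0.5, scaling by the lowest background, a stricter −log10 q (5 or more in each library), the replicate block, and every leave-one-out fit. Over all regions, 70 passed when scaled by the lowest background, which shifted the median difference by −0.23 (65 of the 70 were lower in knockout), and 2 passed with the replicate block. Leaving out 1 library gave 0 throughout. Scaling by background turned the Cbfb difference to −0.19 and that of the Runx1 region at 24.3 kb to −0.22, both about the size of the overall shift. Leaving out 1 library gave −0.16 to 0.24 at Cbfb, −0.064 to 0.10 at 24.3 kb and −0.25 to 0.046 at 25 kb. It turned Cbfb to −0.16 and −0.065 (without wild-type replicate 1 and knockout replicate 1), the 24.3 kb region to −0.036 and −0.064 (without wild-type replicate 2 and knockout replicate 1), and the 25 kb region to 0.046 and 0.035 (without wild-type replicate 1 and knockout replicate 2). The Runx1 region at 110 kb stayed between 0.19 and 0.64 and the region inside Runx2 between −0.36 and −0.023 over their 8 alternatives each, with adjusted p of at least 0.527. For 25 kb, the stricter q left no value.

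The difference in member regions per library was 2 in the replicate block as well (exact sign-flip permutation p = 1.0 over 2 pairs). With pair differences of 4 and 0, every sign flip gives a mean of the same size, so this test could not decide. The difference was 0 with lists of equal length, −1 with a −log10 q of at least 5, and 0.5 to 3.5 with 1 library left out. Windows around summits, 50 kb links and spans alone left it at 2. Leaving out 1 library gave 0 to 2 knockout-only and 0 to 1 wild-type-only member regions, since a required call or absence is then dropped. Without wild-type replicate 1 the P1 region became knockout-only, without wild-type replicate 2 the P2 region and the one 3.83 kb from P1 did, and without knockout replicate 2 the 2 regions called in knockout replicate 1 alone did. Without wild-type replicate 1 the region called in wild-type replicate 2 alone became wild-type-only. The cause of each change was not tested unless stated. Replicate numbers match labelled times. Same-numbered libraries did not deviate together over all regions, but with 2 libraries per genotype an effect of time was not tested.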

Other observations

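The cyclin and kinase pair that binds RUNX1, cyclin D3 (Ccnd3) and Cdk6, had nearly as many regions as Runx1. Cdk6 had 9 regions, a number that 19 of 21887 genes reached, and Ccnd3 had 8, which 35 genes reached. At Cdk6, 1 of the 9 was called in all 4 libraries, and the number called was 3 and 5 in wild-type replicates 1 and 2 and 5 in each knockout library. At Ccnd3, 3 of the 8 were called in all 4 libraries, and the number called was 4 and 7 in wild type, against 6 and 7 in knockout. In both genes, as in Runx1, wild-type replicate 1 had the fewest. Over the whole series that library also had the fewest regions, 10924 against 11230 to 12264 in the other libraries.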
